A study of Mus musculus with 19 samples.

Results

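Open chromatin at 6 genes of the oligodendrocyte lineage, Olig2, Olig1, Nkx2-2, Pdgfra, Cspg4 and Myrf, was followed in mouse neural progenitors and in cells differentiating from them under conditions that yield astrocytes. A peak was assigned to a gene if its centre lay in the gene body or within 30 kb of either end, by the RefSeq coordinates of GRCm38. This rule gave 54 of the 90154 peaks of the series, 52 of them 500 bp wide. Cspg4 had 19 peaks, Myrf 12, Olig2 and Pdgfra 7 each, Olig1 6 and Nkx2-2 4, and 1 peak between Olig2 and Olig1 belonged to both. All 54 peaks passed the filter on low values and were tested.

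The assay was ATAC-seq, in which a transposase cuts DNA that is not wrapped in nucleosomes and the cut sites are sequenced. Neural stem cells from the ventricular zone of individual wild-type C57BL/6J embryos at embryonic day 14 were grown with EGF as floating neurospheres (NSPs, 3 libraries). The other libraries came from NSPs moved onto coated plates in serum-containing medium for 24 h (3 libraries), 72 h (3) or 1 week (4), or for 24 h (3) or 72 h (3) in the same medium with TNF at 50 ng/ml. All groups came from wild-type mice, and the 1 week group received no TNF. The cultures were not sorted, so fewer cells of a type and less open chromatin per cell cannot be told apart in any value below. The labels do not say which libraries share an embryo or a culture, and p-values measure only the spread between these libraries.

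Olig2 and Olig1 are neighbouring basic helix-loop-helix transcription factors that specify oligodendrocyte progenitors, and Nkx2-2 is a homeodomain factor that acts with them. The progenitors carry the receptor PDGFRα (Pdgfra) and the proteoglycan NG2 (Cspg4), and they turn on myelin genes through the transcription factor MYRF. Neural progenitors of the embryonic brain already use Olig2 and Olig1, and both regulators also appear in cells that do not become oligodendrocytes.

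Promoter sequence was at hand from RefSeq for 4 of the 6 genes (GRCm38.p6), and the 250 bases before the start of Olig2 and of Cspg4 are shown because a peak covers each of them, one that fell and one whose NSP libraries overlapped every other group. The Olig2 window is chr16:91225300-91225549 and the Cspg4 window chr9:56864854-56865103, both on the plus strand and written 5′ to 3′. Capitals mark matches, on either strand, to a GC box (GGGCGG), a SOX site (ACAATG), an NFI site (TTGGCA) or an E-box (CANNTG).
Olig2: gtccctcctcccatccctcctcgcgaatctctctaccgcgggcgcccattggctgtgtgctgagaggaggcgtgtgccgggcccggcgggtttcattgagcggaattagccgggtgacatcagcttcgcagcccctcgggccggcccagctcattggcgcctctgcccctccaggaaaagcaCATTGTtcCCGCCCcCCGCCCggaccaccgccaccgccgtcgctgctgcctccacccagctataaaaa
Cspg4: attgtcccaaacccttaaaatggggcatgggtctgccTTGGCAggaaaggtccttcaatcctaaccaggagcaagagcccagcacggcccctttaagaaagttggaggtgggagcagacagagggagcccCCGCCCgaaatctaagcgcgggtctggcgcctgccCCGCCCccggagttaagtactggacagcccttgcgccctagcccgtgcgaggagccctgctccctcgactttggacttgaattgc
The Olig2 window held 2 GC boxes and 1 SOX match, the Cspg4 window held 2 GC boxes and 1 NFI match, and neither held an E-box. Of 32851 RefSeq promoter windows of that length, 32.7% held a GC box, 10.7% a SOX match, 12.3% an NFI match and 66.2% an E-box. The Olig2 window was 66.8% G or C with 22 CpG dinucleotides, and the Cspg4 window 60.4% with 12. No peak overlapped the same window of Nkx2-2 (chr2:147186403-147186652) or of Pdgfra (chr5:75152001-75152250). Matches describe the letters only.

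Values are normalised reads, the reads in a peak divided by a size factor of each library. NSP libraries were the deepest, with 28636739 to 39349111 reads in peaks against 9640256 to 25165008 in the others, and the 54 peaks took 0.0880 to 0.103% of the reads in the NSPs and 0.0600 to 0.0724% in every other library. NSP replicate 1 stood apart from the other NSP libraries with the share of 0.0880%, so a part of the results is also given without it. Libraries of 72 h and 1 week carry a name tag, of a meaning not given, that NSP and 24 h libraries lack, and tag and time cannot be told apart in comparisons between them. Peaks within 1 kb of the ends of 5 progenitor genes (Nes, Sox2, Hes5, Vim and Fabp7, 6 peaks) summed to 5487 to 6145 in the NSPs and 2389.5 to 3725 elsewhere. The same sum over 6 of 7 astrocyte genes (Aqp4 had no such peak) was 1431 to 1555 in the NSPs and 1229.8 to 1782 elsewhere, and that over 5 of 7 neuronal genes (not Dcx or Rbfox3) 2359 to 3053 in the NSPs and 1737 to 2377 elsewhere. It was 157 to 239.9 in the NSPs and 56.9 to 179.8 elsewhere over 2 of 6 microglial genes (not Aif1, Cx3cr1, Csf1r or Itgam), and 434 to 450.4 and 433 to 648 over 2 of 7 pericyte and mesenchymal genes (not Pdgfrb, Rgs5, Col1a2, Anpep or Lum). The part of depth, tag and cell mixture in the results below was not tested.

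Signal at these genes was highest in the NSPs for 27 of the 54 peaks (50.0%, against 32.6% of all 90154 peaks) and fell most at Olig2. A peak is called here when limma's moderated test gave a Benjamini-Hochberg adjusted p under 0.05 over all 88919 peaks tested. At 24 h, 8 of the 54 peaks were higher and 23 lower than in the NSPs, where 24.2% of all peaks were called higher and 23.0% lower. At 72 h, 9 were higher and 22 lower (28.3 and 30.9% of all peaks), and at 1 week 11 were higher and 26 lower (33.7 and 33.6%). With TNF, 10 were higher and 21 lower at 24 h (26.5 and 25.5%), and 11 were higher and 21 lower at 72 h (29.1 and 30.9%). These 5 comparisons share the NSP libraries. At 24 h the 54 peaks had a median log2 fold change of -0.39 (-0.07 over all peaks), which was -0.29 after 72 h (-0.06) and -0.36 after 1 week (0.01). Lower calls exceeded higher calls in each of the 5 comparisons, and the share of the 54 called lower (42.6% at 24 h, 40.7% at 72 h, 48.1% at 1 week, 38.9% with TNF at either time) was above that of all peaks. Total-read scaling moved the median of all peaks to 0.11 at 24 h and 0.21 at 72 h and that of the 54 peaks to -0.20 and -0.017, and gave 10 higher and 17 lower peaks at 24 h and 12 and 18 at 72 h. Higher calls were then 37.0 and 40.0% of the calls among the 54 at these times, against 67.9 and 63.8% of the calls over all peaks. Without NSP replicate 1, the counts were 9 and 28 at 24 h, 9 and 22 at 72 h, and 12 and 27 at 1 week, and without NSP replicate 3 the 11 higher peaks at 72 h with TNF became 7. Of the 54 peaks, 7 were called in no comparison.

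**Figure D1:**
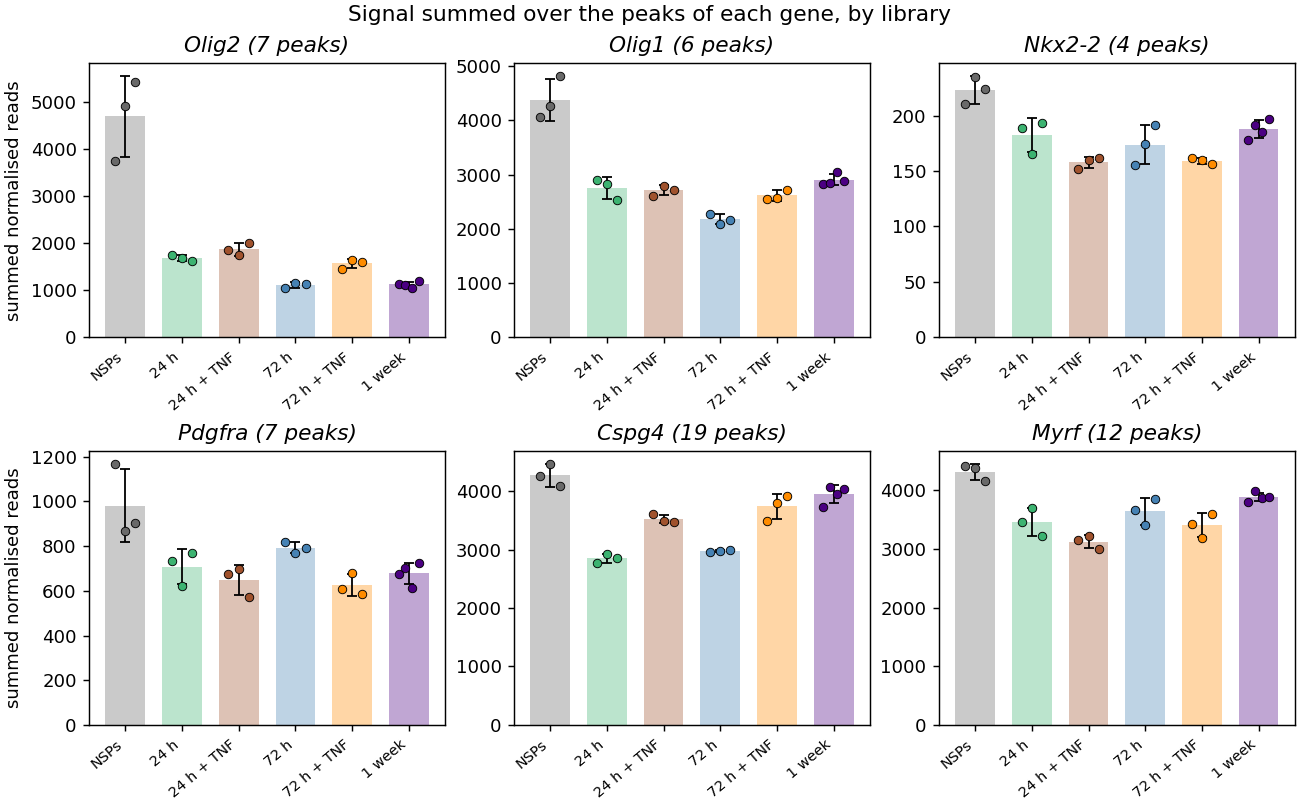
Summed normalised reads (y axis, linear from 0) over the peaks of each gene in the 6 groups (x axis); points are libraries, bars group means and error bars SD. The NSP libraries lie above all others in each panel, and the drop is largest for Olig2, to 36.0% of the NSP mean at 24 h.

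The sum over the Olig2 peaks dropped furthest of the 6 genes, to 36.0% of the NSP mean by 24 h, 23.7% by 72 h and 23.9% by 1 week. Without NSP replicate 1 these were 32.7, 21.5 and 21.7%. Olig1 stood at 62.8, 49.7 and 66.3%, Cspg4 at 66.7, 69.7 and 92.4%, Myrf at 80.1, 84.4 and 90.0%, Pdgfra at 72.2, 81.0 and 69.2%, and Nkx2-2 at 81.8, 77.9 and 84.3%. NSP replicate 1 was the highest NSP library for Pdgfra (1169 against 870 and 903), and without it Pdgfra stood at 79.9, 89.6 and 76.5%. Without it Olig1 stood at 60.6, 48.0 and 64.1%, Cspg4 at 66.6, 69.6 and 92.4%, Myrf at 81.1, 85.4 and 91.1%, and Nkx2-2 at 79.5, 75.7 and 81.9%. For every gene the NSPs came first and did not overlap the next group. Below the NSPs, the order of Olig2 was 24 h with TNF, 24 h and 72 h with TNF, in which neighbours overlapped, and then 1 week and 72 h, which overlapped each other and lay below the rest. Olig1 was lowest at 72 h, with no overlap with the next group. For Cspg4, 1 week overlapped 72 h with TNF, which overlapped 24 h with TNF, and the untreated 72 h and then 24 h libraries came last without overlap. In Pdgfra 72 h came next after the NSPs, without overlap, and the remaining neighbours overlapped, while for Myrf and Nkx2-2 all neighbours below the NSPs overlapped. These sums mix peaks that rose and fell and were not tested. The Cspg4 sum includes peaks in the neighbouring gene Snx33. Their means were 139 in the NSPs and 937 at 1 week, 694 and 1060, and 488 and 372. The level of Cspg4 without these Snx33 peaks is not given here, and most Myrf peaks also lay in or near other genes.

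Olig2 (chr16:91225550-91228677, plus strand), the factor that commits progenitors to the oligodendrocyte fate, has no peak inside its short gene body, and its strongest peak covers the promoter sequence shown above (chr16:91225115-91225615). Normalised reads at this promoter peak were 1339, 1402 and 1673 in the NSPs, 685, 639 and 671 at 24 h, 592, 548 and 645 at 24 h with TNF, 342, 384 and 398 at 72 h, 422, 501 and 530.5 at 72 h with TNF, and 468, 461, 425 and 442 at 1 week. Every NSP library lay above every differentiating library, and the 72 h libraries were the lowest. The log2 fold change against the NSPs was -1.14 ± 0.11 (SE, adjusted p = 2.47e-09) at 24 h, -1.97 ± 0.11 (SE, adjusted p = 1.14e-14) at 72 h and -1.70 ± 0.11 (SE, adjusted p = 2.22e-14) at 1 week by limma, a 2.20-fold, 3.91-fold and 3.26-fold lower level. The peak fell again from 24 h to 72 h (-0.83 ± 0.11 SE, adjusted p = 5.13e-06), while 1 week and 72 h differed by 0.26 ± 0.11 (SE, adjusted p = 0.0525), which did not pass. At 1 week the promoter still held 425 to 468 normalised reads.

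The largest loss at Olig2 was 5.0 kb beyond its far end, 8.1 kb from the start, at chr16:91233399-91233899, within the long non-coding RNA gene Gm52261. It held 592, 839 and 976 in the NSPs, 155, 143 and 140.4 at 24 h, 212, 184 and 226 at 24 h with TNF, 59.2, 77.8 and 58.6 at 72 h, 164, 158 and 169 at 72 h with TNF, and 45.8, 49.9, 57.2 and 93.3 at 1 week. The NSP libraries were about an order of magnitude above those of 72 h and 1 week, with 24 h between them. Relative to the NSPs the peak was lower by 5.35-fold at 24 h (log2 -2.42 ± 0.21 SE, adjusted p = 8.97e-11), 12.0-fold at 72 h (-3.58 ± 0.21 SE, adjusted p = 9.21e-15) and 13.1-fold at 1 week (-3.71 ± 0.19 SE, adjusted p = 2.91e-16). Values of 72 h and 1 week overlapped and did not differ by the test (-0.13 ± 0.19 SE, adjusted p = 0.639). A neighbour at chr16:91230030-91231027, 1.9 kb beyond the gene and named after its values were seen, also fell, with means of 599.7 in the NSPs, 199 at 24 h, 97.0 at 72 h and 66.0 at 1 week.

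Before the gene, the peak 2.9 kb from the Olig2 start (chr16:91222449-91222949) had 903, 1362 and 1437 in the NSPs, 326, 339 and 308 at 24 h, 265, 259.6 and 279 at 72 h, and 384, 334, 330.1 and 414 at 1 week. It was already near its lowest level at 24 h (log2 -1.90 ± 0.14 SE, adjusted p = 3.34e-12), and its 1 week libraries lay above those of 72 h (0.44 ± 0.13 SE, adjusted p = 0.00810). Scaling by total reads ended this last call (log2 fold change 0.10). NSP replicate 1 held the lowest NSP value at this peak and at the 2 peaks beyond the gene, and without it the falls at 24 h at the peaks 2.9 kb before the gene and 5.0 kb beyond it were -2.11 and -2.62, still called. The peak 22.4 kb before the gene (chr16:91202939-91203439) is named after its values were seen and had means of 436 in the NSPs, 270.2 at 24 h, 192 at 72 h and 115 at 1 week. Weakest was the peak shared with Olig1 (chr16:91246207-91246707), with 45.0, 51.3 and 41.9 in the NSPs, 21.6, 13.3 and 17.2 at 24 h, 15.4, 17.9 and 12.7 at 72 h, and 3.53, 0.779, 6.60 and 2.14 at 1 week. It went from 41.9 or more to 6.60 or less, a log2 change of -3.65 ± 0.61 (SE, adjusted p = 6.11e-06) at 1 week. Its call at 72 h (-1.53 ± 0.66 SE, adjusted p = 0.0458) was lost when any 1 of the 6 NSP and 72 h libraries was left out, for example NSP replicate 1 (-1.54, adjusted p = 0.0588) or 72 h replicate 3 (-1.41, adjusted p = 0.114). It was also lost with total-read scaling (-1.27, adjusted p = 0.0964) and with the replicate number as a block (-1.53, adjusted p = 0.0546). In all, 6 of the 7 Olig2 peaks were lower at 24 h and at 72 h and 7 of 7 at 1 week, with 0 higher. Of all peaks, 23.0, 30.9 and 33.6% were called lower at these times. The 24 h count includes chr16:91206974-91207474, at 79.4 to 116 in the NSPs and 48.0 to 69.5 at 24 h (log2 -0.61). Its 24 h call was lost with total-read scaling (-0.43, adjusted p = 0.135) and with only the groups compared (adjusted p = 0.0742). It was also lost without 24 h replicate 3 (-0.44, adjusted p = 0.151) or NSP replicate 2 (-0.47, adjusted p = 0.134). Its 1 week call was lost without NSP replicate 2 (-0.48, adjusted p = 0.0769).

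**Figure D2:**
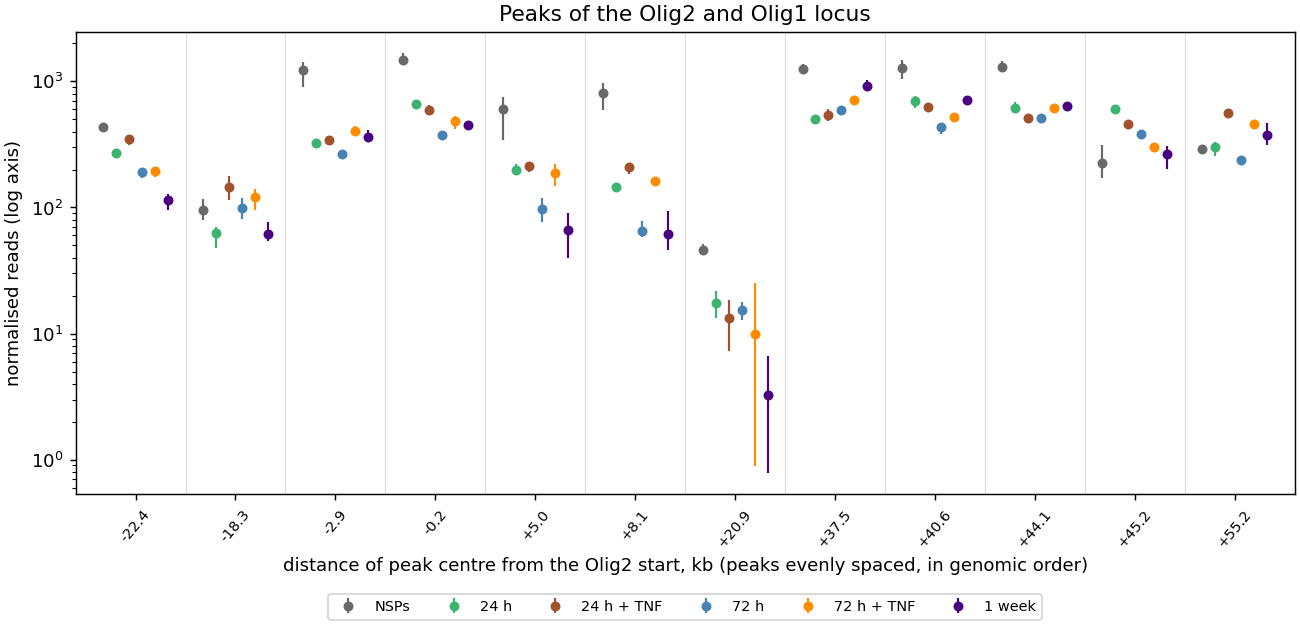
Normalised reads (y axis, log scale) at the 12 peaks of the Olig2 and Olig1 locus, evenly spaced in genomic order and labelled on the x axis by distance of the peak centre from the Olig2 start in kb; points are group means and bars run from the lowest to the highest library. NSP points lie highest at 9 of the 12 peaks, and the peak inside Olig1 is highest at 24 h.

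Olig1 (chr16:91269769-91271939) is the partner of Olig2 that acts mainly later, in differentiating oligodendrocytes. The peak at its lower end (chr16:91269423-91269923) held 1202, 1215 and 1453 in the NSPs, 600.0, 692 and 562 at 24 h, 496, 516 and 524 at 24 h with TNF, 530.2, 495 and 509.8 at 72 h, 595, 624 and 624 at 72 h with TNF, and 684, 664, 579 and 612 at 1 week. All NSP libraries were above all others, whose ranges lay close together. It was 2.09-fold lower at 24 h (log2 -1.06 ± 0.11 SE, adjusted p = 3.46e-09), 2.51-fold lower at 72 h (-1.33 ± 0.11 SE, adjusted p = 1.86e-11) and 2.03-fold lower at 1 week (-1.02 ± 0.10 SE, adjusted p = 5.38e-10). Its rise from 72 h to 1 week (0.31 ± 0.10 SE, adjusted p = 0.0173) was lost without 1 week replicate 1 (0.27, adjusted p = 0.0580) or 72 h replicate 2 (0.28, adjusted p = 0.0624) and with edgeR's TMM scaling (0.21, adjusted p = 0.108), and with total-read scaling the value was -0.035.

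The Olig1 peak with the highest mean over all libraries, 6.7 kb before the gene (chr16:91262795-91263295), had 1171, 1199 and 1377 in the NSPs, 543, 474 and 499 at 24 h, 631, 589.7 and 571 at 72 h, and 904, 885, 1029.9 and 834 at 1 week. It dropped by 24 h (log2 -1.30 ± 0.11 SE, adjusted p = 8.69e-11) and recovered in part, since 1 week exceeded 72 h (0.61 ± 0.10 SE, adjusted p = 4.38e-05) with no overlap. The peak 3.6 kb before the gene (chr16:91265906-91266406) was lowest at 72 h, with means of 1280.0 in the NSPs, 705 at 24 h, 434 at 72 h and 710.0 at 1 week and a log2 change of -1.55 ± 0.12 (SE, adjusted p = 6.00e-12) from the NSPs to 72 h. Inside the gene the direction was the opposite. The peak at chr16:91270485-91270985, named after its values were seen as the 1 Olig1 peak that was higher at 24 h, had 315, 195 and 170.1 in the NSPs, 647, 589 and 574 at 24 h, 423, 462 and 485 at 24 h with TNF, 399, 372 and 379.8 at 72 h, 303, 284 and 320.4 at 72 h with TNF, and 202, 273, 306 and 288 at 1 week. The 24 h libraries lay above all others, at 2.74-fold the NSP level (1.46 ± 0.16 SE, adjusted p = 2.28e-08). By 1 week the difference from the NSPs no longer passed (0.27 ± 0.15 SE, adjusted p = 0.122). NSP replicate 1 held the 315, and every 1 week library lay above the other NSP libraries (195 and 170.1). The difference without NSP replicate 1 is not given for this peak.

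Nkx2-2 (chr2:147176485-147195434, minus strand), the homeodomain factor of oligodendrocyte progenitors, had 4 weak peaks. Closest to its start lay chr2:147188027-147188527, 1.9 kb upstream of the start site used here. It lies inside the annotated gene body and the overlapping antisense gene Nkx2-2os. It held 50.8, 39.6 and 36.5 in the NSPs, 76.3, 57.5 and 50.5 at 24 h, 46.0, 48.5 and 34.3 at 24 h with TNF, 64.3, 58.6 and 75.2 at 72 h, 43.8, 31.0 and 39.6 at 72 h with TNF, and 70.5, 76.4, 94.6 and 80.4 at 1 week. The 1 week libraries were above all NSP libraries, a log2 difference of 0.92 ± 0.23 (SE, adjusted p = 9.29e-04). The peak 8.3 kb downstream of the start (chr2:147177855-147178355) was the strongest, at 98.0 to 112 in the NSPs and 70.4 to 93.5 at 1 week, and its difference did not pass at 24 h (-0.34 ± 0.21 SE, adjusted p = 0.192), 72 h (-0.42 ± 0.21 SE, adjusted p = 0.0929) or 1 week (-0.31 ± 0.20 SE, adjusted p = 0.175). A peak 9.6 kb beyond the upper end, chr2:147204807-147205307, fell from 43.8, 74.0 and 71.8 to 17.6 to 27.9 at 1 week (-1.55 ± 0.34 SE, adjusted p = 2.12e-04). Its call at 24 h (-1.06 ± 0.36 SE, adjusted p = 0.0179) was lost without 24 h replicate 2 (-0.66, adjusted p = 0.153), NSP replicate 2 (-0.93, adjusted p = 0.0755) or NSP replicate 3 (-0.95, adjusted p = 0.0684), and with total-read scaling (-0.87, adjusted p = 0.0594). The fourth peak (chr2:147170521-147171021) had at most 23.6 normalised reads in any library, and its call at 1 week (-1.57 ± 0.69 SE, adjusted p = 0.0461) was lost when any 1 of 5 libraries was left out, for example NSP replicate 2 (-1.12, adjusted p = 0.226), while without NSP replicate 1 it was -2.25, still called.

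Pdgfra (chr5:75151322-75198206, plus strand) encodes the receptor through which PDGF drives oligodendrocyte progenitors to divide. Its promoter had no peak, and the closest one, 3.9 kb inside the gene (chr5:75155705-75156594, 889 bp), was the strongest and changed little. It held 511, 441 and 455 in the NSPs, 384, 325 and 361 at 24 h, 434, 394 and 327 at 24 h with TNF, 358, 318 and 379 at 72 h, 294, 386 and 300.0 at 72 h with TNF, and 361, 368, 306 and 404 at 1 week. The NSP libraries were above those of every other group, by small margins. The differences from the NSPs were -0.39 ± 0.14 (SE, adjusted p = 0.0186) at 24 h, -0.41 ± 0.14 (SE, adjusted p = 0.0104) at 72 h and -0.38 ± 0.13 (SE, adjusted p = 0.00942) at 1 week. Both of the first calls were lost with total-read scaling, at 24 h (-0.20, adjusted p = 0.243) and at 72 h (-0.15, adjusted p = 0.377). The 24 h call was also lost without 24 h replicate 2 (-0.33, adjusted p = 0.0799) and the 72 h call without 72 h replicate 2 (-0.35, adjusted p = 0.0578).

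In contrast, 2 peaks beyond the far end of Pdgfra were almost lost. At chr5:75222731-75223231, 24.8 kb from the gene, normalised reads were 193, 154 and 148 in the NSPs, 38.7, 31.0 and 25.9 at 24 h, 24.8, 35.6 and 39.5 at 24 h with TNF, 24.4, 19.1 and 16.6 at 72 h, 18.8, 13.3 and 26.4 at 72 h with TNF, and 7.05, 13.2, 11.0 and 17.2 at 1 week. At chr5:75223848-75224348, 25.9 kb from it, they were 158, 98.5 and 127 in the NSPs, 44.4, 39.8 and 51.7 at 24 h, 34.5, 35.6 and 21.8 at 24 h with TNF, 32.2, 29.9 and 21.7 at 72 h, 14.3, 31.0 and 20.4 at 72 h with TNF, and 2.65, 3.12, 11.0 and 4.29 at 1 week. In both, NSP values were far above all others. At the second, every 1 week library was below every other library, while at the first the 1 week libraries overlapped those of 72 h with and without TNF. The first was 5.08-fold lower at 24 h (-2.34 ± 0.35 SE, adjusted p = 2.22e-06) and 13.1-fold lower at 1 week (-3.71 ± 0.32 SE, adjusted p = 3.46e-11). The second was 2.75-fold lower at 24 h (-1.46 ± 0.40 SE, adjusted p = 0.00345) and 22.8-fold lower at 1 week (-4.51 ± 0.37 SE, adjusted p = 1.05e-11), with a further fall between 72 h and 1 week (-2.36 ± 0.37 SE, adjusted p = 1.71e-05). Before the gene, in the long non-coding RNA gene Gm19583, the peak at chr5:75121553-75122053 had 144, 66.4 and 81.1 in the NSPs, 115, 103 and 166 at 24 h, 235, 176 and 249.8 at 72 h, and 134, 122, 161 and 143 at 1 week. It was higher at 72 h than in any NSP library (1.24 ± 0.24 SE, adjusted p = 6.63e-05), and its difference from 24 h (0.79 ± 0.24 SE, adjusted p = 0.0154) was lost without any 1 of 4 libraries, for example 24 h replicate 2 (0.65, adjusted p = 0.0864). NSP replicate 1 held the 144. The difference between 24 h and the NSPs did not pass with all libraries but passed without that replicate (0.77, adjusted p = 0.00361).

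**Figure D3:**
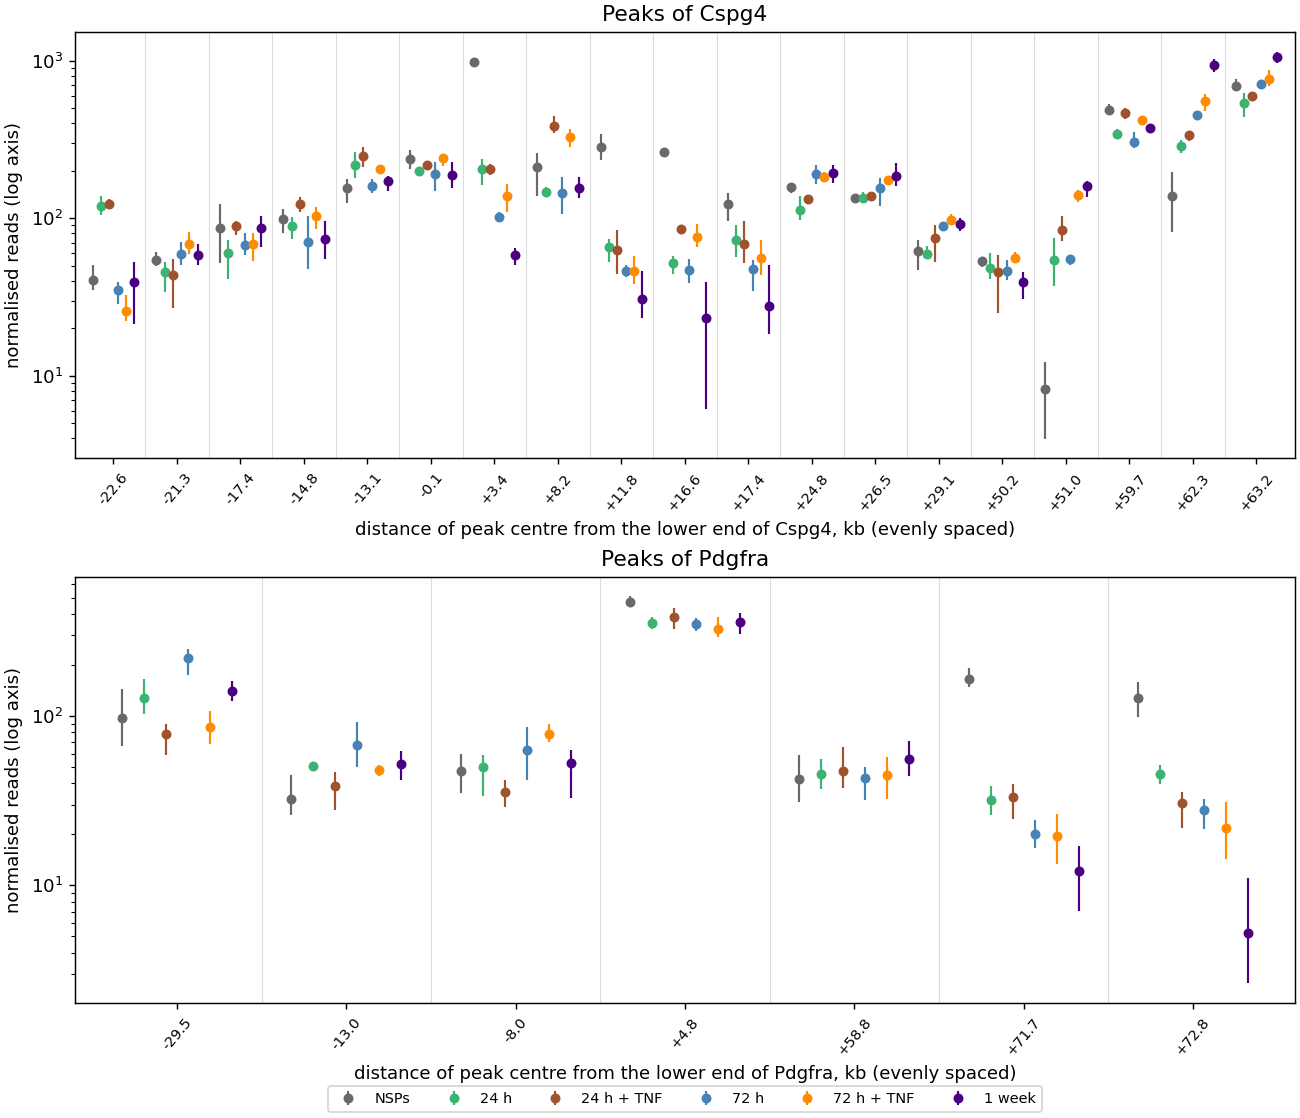
Normalised reads (y axis, log scale) at the peaks of Cspg4 (top) and Pdgfra (bottom), evenly spaced and labelled on the x axis by distance of the peak centre from the lower end of the gene in kb; points are group means and bars run from the lowest to the highest library. At +3.4 kb in Cspg4 the NSP mean is 984 and the 1 week mean 58.4, and at +72.8 kb of Pdgfra they are 128 and 5.26.

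Cspg4 (chr9:56865104-56899870, plus strand), which encodes the NG2 proteoglycan of oligodendrocyte progenitors and pericytes, had a promoter peak that changed little and several peaks inside the gene that fell. The promoter peak (chr9:56864786-56865286), over the sequence shown above, held 269, 243 and 204 in the NSPs, 191, 207 and 203 at 24 h, 227, 214 and 212 at 24 h with TNF, 194, 228 and 148 at 72 h, 215, 256 and 249.6 at 72 h with TNF, and 174, 195, 156 and 228 at 1 week. The NSP libraries overlapped those of every other group. Against the NSPs it differed by -0.24 ± 0.16 (SE, adjusted p = 0.221) at 24 h and -0.34 ± 0.16 (SE, adjusted p = 0.0707) at 72 h, neither past the threshold, and by -0.35 ± 0.15 (SE, adjusted p = 0.0440) at 1 week. That last call was lost without any 1 of 5 libraries, among them NSP replicate 1 (-0.25, adjusted p = 0.147). For comparison, the Olig2 promoter peak changed by -1.70 at 1 week on the same log2 scale.

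At 3.4 kb inside Cspg4, chr9:56868228-56868728 held 1036, 953 and 964 in the NSPs, 219.7, 236 and 163 at 24 h, 220.2, 206 and 189 at 24 h with TNF, 97.8, 110.0 and 96.9 at 72 h, 109, 166 and 139 at 72 h with TNF, and 50.3, 55.3, 63.8 and 64.3 at 1 week. The groups fell in steps with no overlap between NSPs, 24 h, 72 h and 1 week. The level was 4.81-fold lower at 24 h (-2.27 ± 0.17 SE, adjusted p = 4.12e-12), 9.62-fold lower at 72 h (-3.27 ± 0.17 SE, adjusted p = 5.81e-16) and 16.7-fold lower at 1 week (-4.06 ± 0.16 SE, adjusted p = 2.51e-19). Of the 8 peaks in the gene body, 4 were lower and 0 higher at 24 h (23.0 and 24.2% of all peaks), 5 lower and 1 higher at 72 h (30.9 and 28.3%), and 4 lower and 2 higher at 1 week (33.6 and 33.7%). The peak 11.8 kb inside (chr9:56876691-56877191) had means of 283 in the NSPs, 65.8 at 24 h, 45.9 at 72 h and 30.8 at 1 week. That 16.6 kb inside (chr9:56881485-56881985) had 262 in the NSPs, 51.8 at 24 h, 46.7 at 72 h and 23.4 at 1 week, and both are named after their values were seen. Of the 3 peaks 24.8 to 29.1 kb inside, 1 was lower at 24 h, 0 were lower at 72 h or 1 week, and 2 were higher at 1 week.

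Of the 5 peaks beyond the gene, 2 were higher and 2 lower at 24 h (24.2 and 23.0% of all peaks), and 3 higher and 1 lower at 1 week (33.7 and 33.6%). At 16.2 kb past the Cspg4 end, chr9:56915817-56916317 held 12.3, 8.48 and 3.99 in the NSPs, 50.1, 36.9 and 75.1 at 24 h, 103, 77.6 and 71.7 at 24 h with TNF, 50.2, 57.4 and 58.6 at 72 h, 144, 151 and 126 at 72 h with TNF, and 166, 171, 136 and 163 at 1 week. It was close to absent in the NSPs and strongest at 1 week. It rose 6.17-fold by 24 h (2.63 ± 0.28 SE, adjusted p = 1.04e-08) and 18.6-fold by 1 week (4.22 ± 0.27 SE, adjusted p = 2.48e-14). A peak in the neighbouring gene Snx33 (chr9:56927129-56927629, named after its values were seen) had means of 139 in the NSPs, 286 at 24 h, 451 at 72 h and 937 at 1 week, a log2 rise of 2.83 ± 0.17 (SE, adjusted p = 7.51e-15) by 1 week. The strongest peak in the window, also in Snx33 (chr9:56928041-56928541), had means of 694 in the NSPs, 538 at 24 h, 715 at 72 h and 1060.2 at 1 week, and its fall at 24 h (-0.38 ± 0.12 SE, adjusted p = 0.0114) rested on 24 h replicate 3, without which it was lost (-0.24, adjusted p = 0.116), as it was with total-read scaling (-0.19, adjusted p = 0.163). Of the 13 Cspg4 peaks that lay in no other gene and not within 1 kb of the end of one, 2 were higher and 4 lower at 24 h, and 3 higher and 5 lower at 1 week, beside the same shares of all peaks.

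Myrf (chr19:10208271-10240777), the factor that switches on myelin genes, lies in a dense region, and 9 of its 12 peaks were in or within 1 kb of the end of Fads1, Fen1, Tmem258 or Dagla. Its own peak at the upper end (chr19:10240532-10241032) had 309, 319 and 318 in the NSPs, 261, 314 and 249 at 24 h, 296, 292 and 261 at 24 h with TNF, 251, 236 and 241 at 72 h, 269, 276 and 286 at 72 h with TNF, and 265, 291, 259.7 and 235 at 1 week. The spread was narrow, and the NSP libraries overlapped those of 24 h but not those of 72 h or 1 week. The change was -0.21 ± 0.12 (SE, adjusted p = 0.178) at 24 h, -0.38 ± 0.12 (SE, adjusted p = 0.0105) at 72 h and -0.27 ± 0.12 (SE, adjusted p = 0.0453) at 1 week, the last lost without any 1 of 5 libraries, for example 1 week replicate 4 (-0.21, adjusted p = 0.134).

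Inside Myrf a weak peak (chr19:10213757-10214257) held 13.4, 21.2 and 17.9 in the NSPs, 101, 60.5 and 70.2 at 24 h, 35.4, 81.9 and 40.5 at 24 h with TNF, 64.3, 61.0 and 62.5 at 72 h, 52.7, 32.5 and 36.0 at 72 h with TNF, and 35.3, 34.3, 41.8 and 31.1 at 1 week. All differentiating libraries were above all NSP libraries. It rose 4.19-fold at 24 h (2.07 ± 0.31 SE, adjusted p = 2.37e-06) and was 2.00-fold above the NSPs at 1 week (1.00 ± 0.29 SE, adjusted p = 0.00312). The largest change in the window was in Fads1, a fatty acid desaturase gene (chr19:10195142-10195642), with 281, 70.7 and 73.1 in the NSPs, 295, 301 and 262 at 24 h, 507, 441 and 557 at 72 h, and 395, 361, 420.3 and 389 at 1 week. NSP replicate 1 held 281 there, level with the 24 h libraries, and without it the 24 h difference of 1.32 ± 0.28 (SE, adjusted p = 2.48e-04) became 1.98 and the 72 h difference of 2.13 ± 0.28 (SE, adjusted p = 1.54e-07) became 2.78. The strongest peak of the window, also in Fads1 (chr19:10188354-10188854), had means of 1439.9 in the NSPs, 1084 at 24 h, 1026 at 72 h and 1153 at 1 week and fell by 24 h (-0.42 ± 0.11 SE, adjusted p = 0.00363). Of the 3 peaks that lay in no other gene and not within 1 kb of the end of one, 1 was higher and 0 lower at 24 h (24.2 and 23.0% of all peaks), and 1 was higher and 2 lower at 1 week (33.7 and 33.6%).

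**Figure D4:**
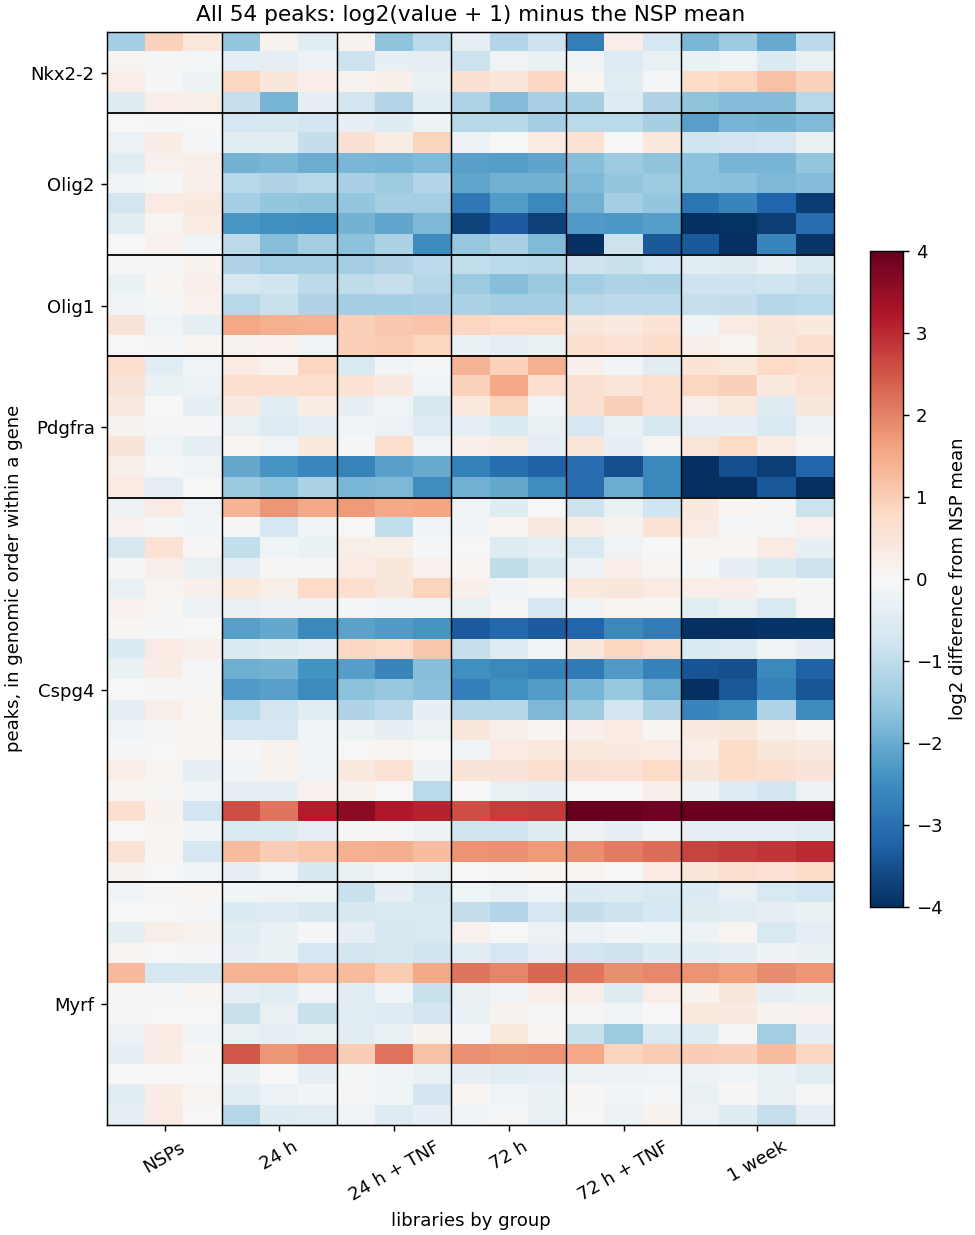
Each row is 1 of the 54 peaks, grouped by gene and in genomic order, and each column 1 of the 19 libraries, in replicate order within the group. Colour gives log2(value + 1) minus the NSP mean of that peak, saturating at 4 in either direction. Blue rows gather at Olig2, at the peaks farthest beyond Pdgfra and in the middle of Cspg4, and the darkest red row is the Cspg4 peak past the gene end.

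Between 24 h and 72 h without TNF, 8 of the 54 peaks were higher and 9 lower, where 12.0% of all peaks were called higher and 14.3% lower, and between 72 h and 1 week 10 were higher and 11 lower (22.5 and 16.2%). Of the 9 that fell by 72 h, 6 lay at the Olig2 and Olig1 locus. The 72 h to 1 week split depended on scaling, since total reads gave 5 higher and 19 lower, with the median of all peaks at -0.31 in place of 0.02. Under that scaling 20.8% of the calls among the 54 peaks were higher, near the 21.0% of the calls over all peaks. With the deposited values these shares were 47.6 and 58.2%. The 8 higher peaks of the earlier step became 4 to 6 without any 1 library, 4 without 24 h replicate 3 or 72 h replicate 3 and 5 without 24 h replicate 1 or 72 h replicate 1. The 11 lower peaks of the later step became 7 without 72 h replicate 3.

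With TNF, an inflammatory cytokine, more of these peaks were higher than lower, which at 24 h also held over all peaks. At 24 h, 4 were higher and 1 lower with TNF than without, or 7.41 and 1.85% (7.06 and 3.53% of all peaks). At 72 h, 8 were higher and 3 lower, or 14.8 and 5.56% (6.24 and 5.55%). The share called higher was thus near that of all peaks at 24 h and above it at 72 h. All 5 calls at the Olig2 and Olig1 locus at 72 h, and all 3 at Cspg4, were higher, while the 3 lower calls lay at Nkx2-2, Pdgfra and Myrf. Total-read scaling gave 4 higher and 2 lower at 24 h and 7 and 4 at 72 h. The 3 lower calls at 72 h became 1 without 72 h replicate 2, and the 1 at 24 h became 0 without any 1 of 4 libraries. A peak in Cspg4 and one beyond Olig1 were higher at both times. In Cspg4, 8.2 kb inside the gene (chr9:56873060-56873560), values were 138, 257 and 236 in the NSPs, 137, 146 and 158 at 24 h, 363, 349 and 444 at 24 h with TNF, 107, 141 and 184 at 72 h, 282, 367 and 334 at 72 h with TNF, and 134, 143, 183 and 161 at 1 week. All TNF libraries lay above all libraries of the other groups, NSPs included. The increase was 2.60-fold at 24 h (1.38 ± 0.20 SE, adjusted p = 1.82e-05) and 2.31-fold at 72 h (1.21 ± 0.20 SE, adjusted p = 1.04e-04). NSP replicate 1 held the 138 at this peak. Untreated 24 h and 1 week did not pass against all NSP libraries. Without that replicate both were lower than the NSPs, at 24 h (-0.75, adjusted p = 3.68e-04) and at 1 week (-0.67, adjusted p = 3.61e-04). At 8.8 kb past Olig1 (chr16:91280491-91280991), values were 291, 275 and 309.7 in the NSPs, 319.9, 332 and 256 at 24 h, 559.8, 584 and 532 at 24 h with TNF, 242, 227 and 245 at 72 h, 458, 435 and 485 at 72 h with TNF, and 337, 312, 403 and 465 at 1 week. The TNF libraries were again above the untreated libraries of the same time, by 1.85-fold at 24 h (0.89 ± 0.14 SE, adjusted p = 4.30e-05) and 1.92-fold at 72 h (0.94 ± 0.14 SE, adjusted p = 1.83e-05).

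At Olig2, 1 peak was called higher with TNF at 24 h and 4 at 72 h (7.06 and 6.24% of all peaks), and 0 lower. The peak 18.3 kb before the gene (chr16:91206974-91207474) had 69.5, 69.3 and 48.0 at 24 h, and 146, 115 and 177 at 24 h with TNF. It did not overlap between these groups (log2 1.21 ± 0.22 SE, adjusted p = 4.61e-04), and at 72 h it differed by 0.29 ± 0.22 (SE, adjusted p = 0.455). The peak 8.1 kb from the start, described above, differed by 0.50 ± 0.21 (SE, adjusted p = 0.130) at 24 h and rose 2.51-fold at 72 h (1.33 ± 0.21 SE, adjusted p = 5.54e-05), from 58.6 to 77.8 without TNF to 158 to 169 with it. TNF libraries of that peak stayed below every NSP library. The promoter peak of Olig2 differed by 0.37 ± 0.11 (SE, adjusted p = 0.0334) at 72 h, a call that was lost with edgeR's TMM scaling (0.34, adjusted p = 0.0550) and with total-read scaling (0.29, adjusted p = 0.0967). It was also lost without 72 h replicate 1 (0.30, adjusted p = 0.160) or 2 (0.39, adjusted p = 0.0625), and without 72 h TNF replicate 2 (0.34, adjusted p = 0.112) or 3 (0.30, adjusted p = 0.167). The remaining calls of the locus at 72 h were at 2.9 kb before Olig2 (0.59 ± 0.14 SE, adjusted p = 0.00453) and in Gm52261 at chr16:91230030-91231027 (0.94 ± 0.25 SE, adjusted p = 0.0116).

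**Figure D5:**
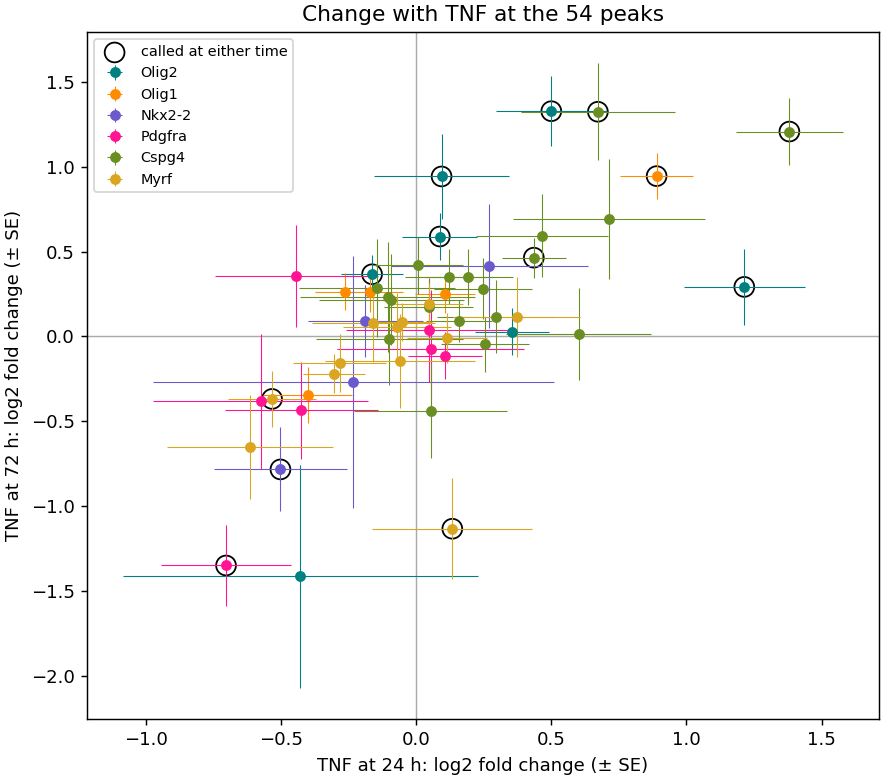
Change with TNF at 24 h (x axis) and at 72 h (y axis) for the 54 peaks, as log2 fold changes with SE bars, coloured by gene; rings mark peaks called at either time. The Cspg4 peak 8.2 kb inside the gene and the peak past Olig1 lie to the upper right, and the Pdgfra peak at -1.35 on the y axis is the lowest ringed point.

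Other TNF calls were few. The Cspg4 peak 16.2 kb past the gene, which rose during differentiation, was 2.50-fold higher with TNF at 72 h (1.32 ± 0.28 SE, adjusted p = 0.00208), and a peak in Snx33 (chr9:56924518-56925018, named after its values were seen) was higher at both times, by 0.44 ± 0.12 (SE, adjusted p = 0.0153) and 0.46 ± 0.12 (SE, adjusted p = 0.00891). At Pdgfra the peak in Gm19583 (chr5:75121553-75122053) had 235, 176 and 249.8 at 72 h, and 106, 84.2 and 68.4 at 72 h with TNF. The groups did not overlap, and the level was 2.55-fold lower (-1.35 ± 0.24 SE, adjusted p = 3.03e-04). The Nkx2-2 peak closest to its start was also lower at 72 h (-0.78 ± 0.25 SE, adjusted p = 0.0358), and the call was lost without any 1 of 5 libraries, for example 72 h TNF replicate 2 (-0.65, adjusted p = 0.152). At Myrf a peak 26.9 kb outside the lower end of the gene (chr19:10181136-10181636) was lower at 24 h (-0.53 ± 0.16 SE, adjusted p = 0.0327). That call was lost without any 1 of 5 libraries, for example 24 h TNF replicate 1 (-0.41, adjusted p = 0.183). A peak in Tmem258 (chr19:10204522-10205022) was lower at 72 h (-1.13 ± 0.30 SE, adjusted p = 0.0107). This was lost without 72 h TNF replicate 2 (-0.90, adjusted p = 0.0817) or 72 h replicate 2 (adjusted p = 0.0633). Whether the TNF effect differed between 24 h and 72 h was tested as an interaction. By limma 0 of the 54 peaks were called (1 of all peaks, 0.00112%), the smallest adjusted p was 0.428, and 8 peaks had an unadjusted p under 0.05. edgeR and DESeq2 also called 0 of the 54.

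Other genes of the lineage were counted by the same 30 kb rule. At 7 further transcription factors (Sox10, Sox8, Nkx6-2, Zfp488, Zfp536, Tcf7l2 and Sox6; 100 peaks), 15 were higher and 33 lower at 24 h (24.2 and 23.0% of all peaks) and 30 higher and 42 lower at 1 week (33.7 and 33.6%) against the NSPs. Sox8, an oligodendrocyte and glial SOX factor, had 10 of 11 peaks lower and 0 higher at 24 h, and Sox10, which acts with Olig2 on myelin genes, had 2 of 9 higher and 2 lower. At 8 progenitor surface, matrix and ligand genes (Ptprz1, Vcan, Gpr17, Lhfpl3, Bcas1, Enpp6, Pdgfa and Pdgfc; 81 peaks), 22 were higher and 14 lower at 24 h (27.2 and 17.3% of the 81), and 34 and 24 at 1 week (42.0 and 29.6%). The share higher at 24 h and the share lower at 1 week were near those of all peaks. Pdgfa, the ligand of PDGFRα, had 5 of 13 peaks higher and 2 lower at 24 h, 8 higher and 1 lower at 1 week, and 5 higher with TNF at 24 h with 0 lower, while Vcan, a matrix proteoglycan gene, had 3 of 4 lower at both times. Of single myelin genes, named after their values were seen, Cnp had 5 of 14 peaks higher and 4 lower at 24 h and 5 higher and 3 lower at 1 week, Fa2h 1 of 6 higher and 3 lower and then 2 and 3, and Mobp 0 of 5 higher and 2 lower and then 0 and 1. Cldn11, the tight junction protein of myelin, had 0 of 4 higher and 3 lower at both times. With TNF, the transcription factors had 4 higher and 3 lower at 24 h and 5 and 7 at 72 h, and the surface and ligand genes 7 and 0 and then 5 and 4. The corresponding shares of all peaks were 7.06% and 3.53% at the earlier time and 6.24% and 5.55% at the later one. The shares of both lists lay within 4 percentage points of those of all peaks.

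The start peaks were also compared with the gene-end peaks of 12976 other genes over the 19 libraries, as a description in which all points share the same libraries and group structure. Closest to the Olig2 promoter peak were Hacd4 (Pearson r = 0.96), Cdh4 (0.96) and Cntn6 (0.95), and Hacd4 had means of 1205 in the NSPs, 635 at 24 h, 395 at 72 h and 444 at 1 week. Closest to the Olig1 peak were Spo11 (0.95), Fads2 (0.94) and Pde10a (0.94). For the other genes the likeness was lower, at 0.87 for Cxcr5, Sned1 and Acsm5 with Nkx2-2, 0.79 to 0.80 for Mmd2, Calb2 and Map1s with Pdgfra, 0.75 to 0.82 for Nyx, Drd1 and Slc16a12 with Cspg4, and 0.84 to 0.85 for Maml2, Fgf5 and Notch3 with Myrf.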

How the data were processed

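ATAC-seq libraries of unsorted cultured cells (19 in 6 groups, grouped by the labels) were analysed from 1 deposited table of signal, the normalised reads in each of 90154 peaks in mm10 coordinates. Per the labels, the authors used FastQC, Trim Galore, Bowtie2, SAMtools and MACS2, and by the study's methods mitochondrial reads were discarded, as were peaks that fell in blacklisted regions. Versions and the normalisation are not given in the sources used here. In every library 100.0% of the deposited values were whole multiples of the lowest one (tolerance 0.01 of a read), so reads could be recovered, and the total reads in peaks of each library are those given above. Peaks in the table are shared by all libraries, so a value near 0 is a low count in a peak found elsewhere.

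Values were tested as log2(value + 1) with limma 3.58.1 in R 4.3.3, with a mean for each group, all 19 libraries in 1 fit and a trend in the variance. The edgeR filter for low values (minimum count 10) left 88919 peaks and removed 1235. On that scale the change of a peak with few reads comes out too small. P-values were adjusted by Benjamini-Hochberg over all peaks tested. Folds in the text are the same log2 values turned into a ratio. Alternatives were a pseudocount of 8, no filter, scaling by total reads, count tests on whole reads (DESeq2 1.42.0, and edgeR 4.0.16 with TMM and its quasi-likelihood test), fits of only the groups compared, replicate number as a block, and leaving out each library. The fit was tested on simulated data.

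The 6 genes, the lists and the tests were chosen with earlier results of these data known. Peaks named for each gene were the one closest to the start (or to a gene end where no strand was at hand, for Olig1 and Myrf), the 2 with the largest range of group means, the one with the highest mean, and those with the smallest p for TNF at 24 h, TNF at 72 h and 24 h against NSPs. Gene coordinates and promoters came from RefSeq (GRCm38.p6). Sequences of the peaks and promoters of Olig1 and Myrf were not analysed here. A count over the myelin list is not reported here.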

Additional observations from a re-analysis of the deposited data

Results flagged for a closer look

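Among 60 values examined for a single stray 1 week library, 2 were set apart by 1 library, and chance sets apart about 1 in 20 groups. In Cspg4, at chr9:56882267-56882767, 1 week replicate 3 held 50.6 normalised reads against 18.5, 21.0 and 20.4, a gap of 0.921 of the range. At chr9:56924518-56925018, in the Snx33 part of the Cspg4 window, replicate 4 held 359 against 376, 376 and 376, a gap of 0.951 of a narrow range.

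At the Olig1 end peak (chr16:91269423-91269923), TNF libraries lay below untreated libraries at 24 h and above them at 72 h, without overlap at either time. The log2 TNF effect was -0.26 at 24 h and 0.26 at 72 h, neither past the threshold (adjusted p = 0.13 and 0.12 by limma). Their difference was 0.53 ± 0.15 (SE) with an interaction adjusted p of 0.43, which did not pass.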

How the results depend on the processing

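With total-read scaling, the 10 higher and 11 lower peaks of 1 week against 72 h became 5 and 19, the 1 lower peak with TNF at 24 h became 2, and the Olig1 end peak (chr16:91269423-91269923) between 72 h and 1 week turned to -0.035. Over all peaks, the higher share of the calls of 1 week against 72 h went from 58.2 to 21.0% with that scaling. Fitting only the groups compared made that 1 lower peak with TNF 3. Leaving out 1 library gave 7 to 10 higher peaks for 72 h with TNF against NSPs, 4 to 6 for 72 h against 24 h, 7 to 11 lower peaks for 1 week against 72 h, 0 to 1 lower with TNF at 24 h and 1 to 3 lower with TNF at 72 h. The lowest of these came without NSP replicate 3 (7), 24 h replicate 3 or 72 h replicate 3 (4), 72 h replicate 3 (7), any of 24 h replicates 1 and 2 and 24 h TNF replicates 1 and 3 (0), and 72 h replicate 2 (1). The cause was not tested. The other counts of called peaks stayed within 1.5 times under the alternatives run.

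Of 252 log2 fold changes of named peaks, edgeR kept 242 on their side of the threshold, DESeq2 246, a pseudocount of 8 248 and no filter 251. Total-read scaling moved 13 over it, 14 under it and turned 1. Same-numbered libraries showed little shared deviation (correlations -0.0416 to 0.106). Such values cannot tell whether the numbers mark a shared embryo or culture. With the replicate block, 25 peaks in place of 23 were lower at 24 h, 9 in place of 11 were lower at 1 week than at 72 h, and 245 of the 252 kept their side. Peaks of a few reads, such as the Olig2 and Olig1 shared peak, are limited by depth.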
